A study of Homo sapiens with 18 samples.

Results

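Endothelin-1 and 7 other genes of vasoactive peptide signalling were followed in ECV304 cells stimulated with interleukin-1β (IL-1β), with or without aminaphtone. The 8 genes are EDN1, ECE1, EDNRA, EDNRB, ADM, CALCRL, RAMP1 and ACE. They were chosen by name, with earlier results of these data known. A transcript cluster, the array's unit of measurement, stood for a gene where its annotation gave that symbol alone. Of the 8 genes 7 had such a transcript cluster, 1 each, among 18377 genes with a symbol of their own. For EDNRA no transcript cluster was annotated with its symbol alone, and it was not analysed here.

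Each sample was hybridised to 1 Affymetrix Human Gene 1.0 ST array, 18 in all. The treated groups received aminaphtone, a vasoactive drug given for fragile capillaries, at 6 µg/ml together with IL-1β at 100 IU/ml. IL-1β is a cytokine that drives inflammation. The control groups received the same IL-1β with an equal volume of medium in place of aminaphtone. RNA was taken after 1, 3 or 6 h, with 3 arrays per group. All cells, controls included, were confluent and had been kept in reduced serum before treatment. No group without IL-1β was included, so the time courses cannot tell an answer to IL-1β from effects of the serum change or of time in culture. The labels call the replicates independent but do not say what was repeated, and the p-values reflect only the variation among these arrays, which may be technical.

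ECV304 is an established human line labelled as endothelial and as having endothelial and epithelial features, and it is known as a derivative of a human bladder carcinoma line. Of 10 endothelial markers 5 stood above the 25th percentile of all transcript clusters and 2 above the median. PECAM1, KDR, TEK, ERG and EMCN lay below the 25th percentile, KDR at 24.0 and PECAM1 at 22.1. VWF stood at 32.9, TIE1 at 39.2, CDH5 at 49.7, CLDN5 at 62.3 and ESAM at 78.7. Of 12 epithelial and urothelial markers 11 had a transcript cluster. All 11 stood above the 25th percentile and 6 above the median, with the keratins KRT7, KRT8 and KRT18 at the 97.1, 99.0 and 98.0 percentiles. The 1 h control arrays agreed less with each other (correlations of 0.964 to 0.986 over all transcript clusters) than the arrays of the other groups (0.986 to 0.997). Leaving out the first 1 h control array raised the number of transcript clusters past the threshold at 1 h to 8611, against 15 with all arrays. Without the second 1 h control array the number was 15, and without the third it was 8. The results at 1 h are therefore given with and without the first, and for EDN1, ECE1, RAMP1 and ACE also without the second.

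Endothelin-1 is a small peptide that constricts vessels. It is cut by endothelin-converting enzymes from an inactive precursor and acts through 2 receptors, of which the A type, on smooth muscle, constricts and the B type, on endothelium, releases dilators and clears the peptide. Its supply is set mainly by transcription and release of EDN1, and endothelial cells are its classical source. Adrenomedullin dilates vessels and acts through the calcitonin receptor-like receptor paired with a receptor activity-modifying protein. Angiotensin-converting enzyme makes the constrictor angiotensin II and degrades bradykinin.

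The genes differed widely in signal and in how much they moved. Mean log2 signals over the 18 arrays were 11.70 for ECE1, 9.96 for EDN1, 9.20 for ADM, 8.60 for RAMP1, 6.59 for ACE, 4.67 for EDNRB and 3.65 for CALCRL. Probes differ in their brightness, so these values place each gene among all transcript clusters and do not rank the transcripts against each other. The tests covered annotated transcript clusters above the 25th percentile of signal (log2 5.52), 17853 in all. ECE1, EDN1, ADM, RAMP1 and ACE were tested, while EDNRB and CALCRL lay under that limit. ADM spanned 2.23 log2 units between its lowest and highest array, more than 98.0% of tested transcript clusters. EDN1 spanned 1.55 and ECE1 1.07, at the 86.8 and 66.1 percentiles of that span. RAMP1 spanned 0.65 and ACE 0.41, at the 32.5 and 4.37 percentiles.

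EDN1, the gene of the endothelin-1 precursor on chromosome 6, had a mean signal at the 90.4 percentile and was lower with aminaphtone than with IL-1β alone. At 1 h its log2 signal was 9.26, 9.19 and 9.52 in aminaphtone arrays, against 10.25, 9.69 and 10.54 in control arrays. At 3 h it was 9.80, 9.69 and 9.29 with aminaphtone, against 10.52, 10.54 and 10.56 in controls. At 6 h it was 9.65, 9.61 and 9.49 with aminaphtone, against 10.42, 10.74 and 10.52 in controls. At each time all 3 aminaphtone arrays were below all 3 control arrays, as were those of 7.67%, 5.66% and 7.06% of tested transcript clusters at 1, 3 and 6 h. EDN1 was 1 of 32 among 17853 transcript clusters (0.179%) that were lower without overlap at all 3 times. Over all times the 9 aminaphtone arrays ran from 9.19 to 9.80 and the 9 control arrays from 9.69 to 10.74. The second 1 h control array, at 9.69, was the only control inside the aminaphtone range, and the other 8 controls began at 10.25.

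**Figure D1:**
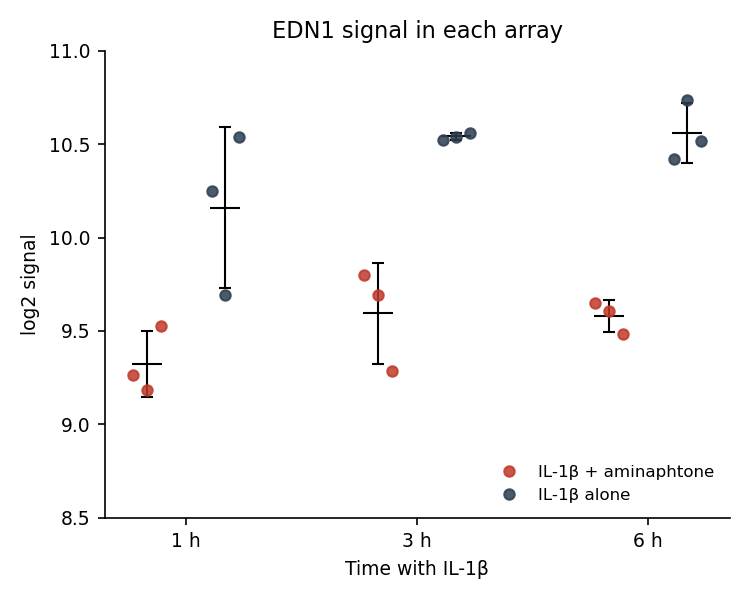
Log2 signal of EDN1 in each of the 18 arrays (points), by treatment and hours after IL-1β was added, with horizontal bars for the group means and vertical bars for 1 SD (n = 3). The aminaphtone means lie at 9.32, 9.59 and 9.58 at 1, 3 and 6 h and the control means at 10.16, 10.54 and 10.56, and only the second 1 h control array falls within the range of the aminaphtone arrays.

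Averaged over the 3 times, EDN1 was 1.89-fold lower with aminaphtone (log2 difference -0.92, SE 0.10, 95% interval -1.14 to -0.70, limma adjusted p = 0.000322). It was the only one of the 5 tested genes past the threshold of 0.05 in this comparison, in which 0.751% of tested transcript clusters passed, and its p ranked 3 of 17853. The difference was negative at all 3 times and stayed past the threshold with any 1 of the 18 arrays left out, between -0.999 and -0.857 with a highest adjusted p of 0.00168. Lower signal can mean less EDN1 RNA per cell or fewer cells that express it, and bulk RNA cannot tell these apart.

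The 3 times gave similar sizes, and the calls at single times were near the threshold. At 6 h EDN1 averaged 9.58 ± 0.08 with aminaphtone and 10.56 ± 0.16 in controls (SD, n = 3 each), a 1.97-fold lower level (log2 -0.98, interval -1.35 to -0.60, limma adjusted p = 0.0444). In this comparison 0.101% of transcript clusters passed. The 6 h call was made in 4 of 18 fits that left out 1 array, namely any 1 h control or the third 3 h aminaphtone array, with adjusted p between 0.00533 and 0.259 over the 18, and not after centring each array on its median (0.0734). At 3 h EDN1 averaged 9.59 ± 0.27 with aminaphtone and 10.54 ± 0.02 in controls (SD, n = 3 each), 1.93-fold lower but not past the threshold (log2 -0.95, interval -1.32 to -0.57, limma adjusted p = 0.0857, rank 11), where 0.028% passed. At 1 h it averaged 9.32 ± 0.18 with aminaphtone and 10.16 ± 0.43 in controls (SD, n = 3 each), 1.79-fold lower (log2 -0.84, interval -1.21 to -0.46, limma adjusted p = 0.0835, rank 44), where 0.084% passed. A fit with the replicate number as a block paired aminaphtone and control arrays at all 3 times, though equal numbers were taken as pairs only at 1 h. In that fit the adjusted p of EDN1 was 0.0184 at 1 h, 0.0502 at 3 h and 0.0218 at 6 h. There 2212, 4 and 28 of 17853 transcript clusters passed. Leaving out 1 array gave a limma adjusted p at 1 h between 0.00554 and 0.432. A call was made without the first 1 h control array (log2 -0.79, adjusted p = 0.00554), where 8611 of 17853 transcript clusters passed. Another was made without the second (log2 -1.07, adjusted p = 0.00583), where 15 passed. At 3 h calls were made without any 1 of the 1 h control arrays (adjusted p = 0.0481, 0.0087 and 0.0489 in the order of their numbers). In these fits 21, 48 and 7 of 17853 transcript clusters passed at 3 h. By limma 0 of the 5 members passed at 1 h and 0 at 3 h. At an unadjusted p of 0.05, 2 of 5 did at 1 h (EDN1 and RAMP1), beside 28.9% of transcript clusters, and 1 of 5 at 3 h (EDN1), beside 6.35%. At 6 h these were 2 of 5 (EDN1 and ADM), beside 3.87%.

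The effect on EDN1 was not shown to differ between times. The test of the interaction of treatment and time gave F = 0.17 (limma adjusted p = 0.954), and the effects at 1, 3 and 6 h differed from each other by at most 0.14 on the log2 scale. By limma 0 of the 5 members passed the interaction test, which 0.0336% of transcript clusters did. At an unadjusted p of 0.05 1 member did, ADM, beside 8.65%. In a fit without the 3 control arrays at 1 h, chosen after seeing the data, the adjusted p of EDN1 was 0.0046 at 3 h and 0.00339 at 6 h. There 83 and 47 of 17853 transcript clusters passed.

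Marker levels beside these values were as follows. Signals were summed before taking the log2, so the brightest markers weigh most. Among the epithelial markers these were KRT8, KRT18 and KRT7, with mean log2 signals of 12.38, 11.75 and 11.36. The summed signal of the 10 endothelial markers ran over 9.83 to 9.92 log2 units in aminaphtone arrays and 9.87 to 10.35 in control arrays at 1 h. At 3 h it was 9.98 to 10.25 with aminaphtone and 10.22 to 10.32 in controls, and at 6 h 10.09 to 10.30 with aminaphtone and 10.22 to 10.36 in controls. The groups overlapped at each time. The summed signal of the 11 epithelial markers overlapped at 1 h (13.66 to 13.77 with aminaphtone, 13.60 to 14.06 in controls) and at 3 h (13.50 to 13.77 with aminaphtone, 13.44 to 13.85 in controls). At 6 h it did not, at 13.32 to 13.36 with aminaphtone and 13.45 to 13.61 in controls. Of single transcript clusters tested 7.06% were lower with no overlap at 6 h. The part of these markers in the EDN1 difference was not tested.

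The promoter of EDN1 is shown because EDN1 was the member that differed between the treatments. The window holds the 250 bases before its start in RefSeq (GRCh38.p14, plus strand, chr6:12290111-12290360), the most downstream of 3 starts in the table. Capitals mark 4 of the motifs found. The first in capitals is the GATA motif GATAA on the minus strand, printed as TTATC. The next is ACGTG on the minus strand, a core of hypoxia response elements, printed as CACGT. It is followed by an AP-1-like element, TGACTAA. The last, near the start, is the TATA motif TATAAA.
EDN1: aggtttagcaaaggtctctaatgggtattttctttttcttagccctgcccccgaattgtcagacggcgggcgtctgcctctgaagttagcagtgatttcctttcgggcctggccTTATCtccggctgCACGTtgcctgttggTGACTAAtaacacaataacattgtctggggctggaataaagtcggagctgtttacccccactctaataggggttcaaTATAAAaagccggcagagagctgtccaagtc
Counting back from the start as -1, the AP-1-like motif runs over -108 to -102, the GATA motif over -136 to -132, the ACGTG motif over -123 to -119 and the TATA motif over -31 to -26. None of these overlaps another. Both strands of 35116 promoter windows of the same length were searched, and TGACTAA occurred in 1.62%, GATAA in 20.44%, ACGTG in 18.51% and TATAAA in 10.72%. The AP-1 consensus TGANTCA occurs in 6.57% of windows and has no match in this one. A short NF-κB-like motif (GGG and CC with 5 unspecified bases between them) matched in lower case at -146 to -137, before the GATA motif, and occurs in 54.43% of windows. These matches describe letters in the window and show no binding.

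ECE1, which encodes the membrane protease that releases active endothelin-1, was not shown to differ between aminaphtone and control. At 1 h its log2 signal was 11.06, 11.02 and 11.50 with aminaphtone, against 11.04, 11.62 and 11.61 in controls. The 3 h values were 11.88, 12.02 and 11.69 with aminaphtone, against 11.52, 11.97 and 11.78 in controls. The 6 h values were 12.05, 11.95 and 11.96 with aminaphtone, against 12.05, 11.79 and 12.09 in controls. The groups overlapped at all 3 times. The difference was -0.23 at 1 h (interval -0.59 to 0.13, limma adjusted p = 0.322), 0.11 at 3 h (-0.25 to 0.47, adjusted p = 0.918) and 0.011 at 6 h (-0.35 to 0.37, adjusted p = 1). The average over the times was -0.037, with an interval of -0.24 to 0.17. Without the first 1 h control array the difference at 1 h was -0.42 (limma adjusted p = 0.0367). In that fit 8611 of 17853 transcript clusters passed at 1 h. Without the second 1 h control array the difference at 1 h was -0.13 (limma adjusted p = 0.805).

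ECE1 was higher at later times in both arms. With aminaphtone it averaged 11.19 ± 0.27, 11.86 ± 0.16 and 11.98 ± 0.06 at 1, 3 and 6 h, and in controls 11.42 ± 0.33, 11.75 ± 0.23 and 11.97 ± 0.16 (SD, n = 3 each). In aminaphtone arrays it was 1.59-fold higher at 3 h than at 1 h (log2 0.67, limma adjusted p = 0.018) and 1.73-fold higher at 6 h than at 1 h (log2 0.79, adjusted p = 0.00385). In control arrays it was 1.47-fold higher at 6 h than at 1 h (log2 0.55, limma adjusted p = 0.0255), and at 3 h it stood at 0.33 above 1 h without passing (adjusted p = 0.231). The call at 6 h with aminaphtone held with any 1 array left out. Those at 3 h with aminaphtone and at 6 h in controls held in 14 and 15 of 18 such fits. The first was lost without the first or second aminaphtone array at 1 h (adjusted p = 0.10 and 0.0849) or at 3 h (0.069 and 0.0817). That in controls was lost without the first 1 h control (0.0793), the first 6 h control (0.0814) or the third 6 h control (0.0994), and in a fit of the 6 h and 1 h controls alone (0.13).

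EDNRB, the endothelin B receptor, lay near the floor of the arrays. Its log2 signal ran from 4.46 to 4.89 over the 18 arrays, at the 15.0 percentile of mean signal, and 5 arrays shared the value 4.69. Its group means were 4.69, 4.71 and 4.61 at 1, 3 and 6 h with aminaphtone, against 4.60, 4.73 and 4.70 in controls, and the arms overlapped at each time. A fit without the filter on low signal gave an average difference of -0.0067 between aminaphtone and control (limma adjusted p = 0.953).

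ADM, the gene of the dilator adrenomedullin on chromosome 11, moved more with time than any other of the 7 genes. Its log2 signal at 1 h was 10.28, 10.03 and 9.95 with aminaphtone, against 9.61, 10.51 and 9.83 in controls. At 3 h it was 8.67, 8.76 and 8.28 with aminaphtone, against 8.67, 8.72 and 8.71 in controls. At 6 h it was 8.49, 8.60 and 8.58 with aminaphtone, against 9.27, 9.56 and 9.03 in controls. The arms overlapped at 1 and 3 h, and at 6 h all 3 aminaphtone arrays were below all 3 control arrays.

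ADM fell after 1 h in both arms. With aminaphtone it was 2.86-fold lower at 3 h than at 1 h (log2 -1.52, SE 0.19, limma adjusted p = 6.97e-05) and 2.89-fold lower at 6 h than at 1 h (log2 -1.53, adjusted p = 4.61e-05). In controls it was 2.43-fold lower at 3 h than at 1 h (log2 -1.28, limma adjusted p = 0.000351) and 1.62-fold lower at 6 h than at 1 h (log2 -0.70, adjusted p = 0.0137). The first 3 of these calls held with any 1 array left out, and the fourth in 16 of 18 such fits, the exceptions being those without the second 1 h control (adjusted p = 0.0659) or the third 6 h control (0.0798). In a fit of the 6 h and 1 h controls alone, the control difference between 6 and 1 h had an adjusted p of 0.133. Changes with time were common among all transcript clusters. With aminaphtone 9.44% passed at 3 h against 1 h and 15.4% at 6 h against 1 h, and in controls 11.3% and 23.7%. Of the 5 tested members ECE1 and ADM passed in both aminaphtone comparisons and in the control comparison of 6 with 1 h, and ADM alone in that of 3 with 1 h.

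The 2 arms of ADM were also compared between 3 and 6 h. With aminaphtone ADM averaged 8.56 ± 0.06 at 6 h and 8.57 ± 0.25 at 3 h (SD, n = 3 each), a difference of -0.013 (limma adjusted p = 0.995). In controls it averaged 9.29 ± 0.27 at 6 h and 8.70 ± 0.02 at 3 h, a difference of 0.58 with no overlap (limma adjusted p = 0.243, or 0.0461 without the second 1 h control array). By limma 0 of the 5 members passed in either comparison, in which 0.235% and 0.459% of transcript clusters did. At an unadjusted p of 0.05 no member did with aminaphtone, beside 9.31%, and 1 did in controls, ADM, beside 9.44%. In controls 9.89% of transcript clusters were higher at 6 h with no overlap. At 6 h ADM was 1.66-fold lower with aminaphtone than in controls without passing the threshold (log2 -0.73, interval -1.13 to -0.33, unadjusted p = 0.00138 and adjusted p = 0.402 by limma). At 6 h 7.06% of tested transcript clusters were lower with no overlap. At 1 h the difference was 0.10 (adjusted p = 0.685), or -0.083 without the first control array, and at 3 h -0.13 (adjusted p = 0.913). The effect at 6 h minus that at 3 h was -0.60 (SE 0.27, unadjusted p = 0.0408, limma adjusted p = 1). The effect at 6 h minus that at 1 h was -0.83 (SE 0.27, unadjusted p = 0.00679, limma adjusted p = 0.425), so the effects were not shown to differ. The 1 h controls enter the 6 h comparison only through the estimate of spread. The adjusted p of ADM at 6 h was 0.0373 without all 3 of them and 0.0487 without the second, and with any 1 of the 18 arrays left out it ran from 0.0487 to 1. The average over the 3 times was -0.25 (limma adjusted p = 0.243), and -0.31 without the first 1 h control array (adjusted p = 0.0402). In that fit 3404 of 17853 transcript clusters passed for the average.

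**Figure D2:**
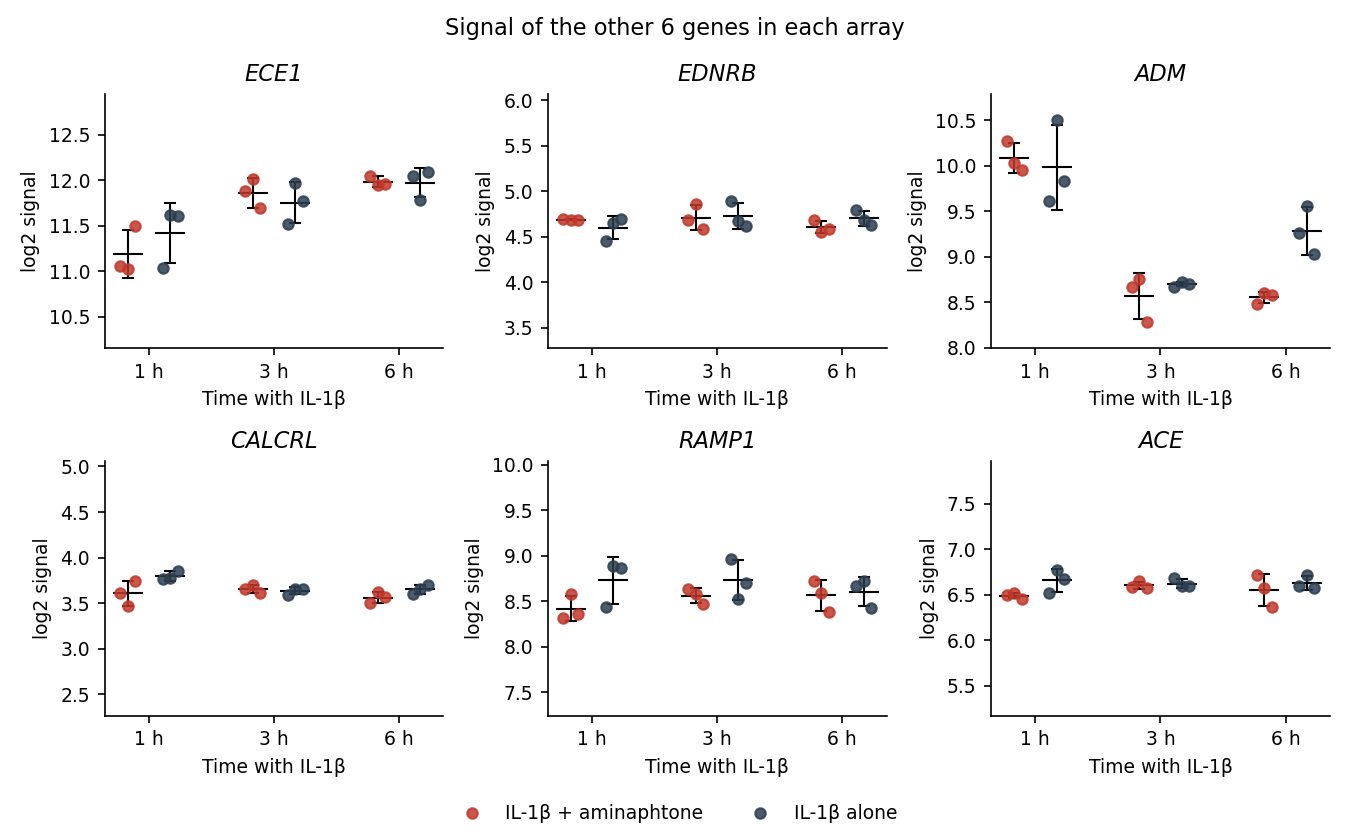
Log2 signal of ECE1, ADM, RAMP1, ACE, EDNRB and CALCRL in each array (points), by treatment and hours after IL-1β was added, with bars for group means and 1 SD (n = 3). ADM stands near 10 at 1 h in both arms and near 8.6 at 3 h, and at 6 h its 3 aminaphtone arrays (8.49 to 8.60) lie below its 3 control arrays (9.03 to 9.56).

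The promoter of ADM is shown because ADM moved most with time. The 250 bases before its 1 start in RefSeq (GRCh38.p14, plus strand, chr11:10304823-10305072) have in capitals GCGTG, a core found in hypoxia response elements, and the TATA motif TATAAA.
ADM: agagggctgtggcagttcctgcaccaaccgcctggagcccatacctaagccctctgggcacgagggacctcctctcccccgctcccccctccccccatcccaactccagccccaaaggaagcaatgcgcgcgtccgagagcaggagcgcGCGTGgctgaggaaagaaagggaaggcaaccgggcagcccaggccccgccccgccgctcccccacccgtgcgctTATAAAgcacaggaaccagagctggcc
The GCGTG match runs over -101 to -97 and the TATA motif over -27 to -22, with no overlap. GCGTG occurred in 32.22% of the windows on either strand. The NF-κB-like motif matched on the minus strand at -60 to -51. The other motifs searched in the EDN1 window have no match in this one.

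RAMP1, a receptor activity-modifying protein that makes the calcitonin receptor-like receptor answer to calcitonin gene-related peptide, stayed within a narrow range. At 1 h its log2 signal was 8.32, 8.58 and 8.36 with aminaphtone, against 8.44, 8.89 and 8.87 in controls. RAMP1 at 3 h had 8.64, 8.58 and 8.48 with aminaphtone, against 8.97, 8.53 and 8.70 in controls. RAMP1 at 6 h had 8.72, 8.60 and 8.39 with aminaphtone, against 8.67, 8.72 and 8.43 in controls. The arms overlapped at each time. The difference was -0.31 at 1 h (interval -0.62 to -0.0041, limma adjusted p = 0.172), -0.17 at 3 h (adjusted p = 0.881) and -0.039 at 6 h (adjusted p = 1). The average was -0.17 (interval -0.35 to 0.0045, limma adjusted p = 0.276). Without the first 1 h control array the adjusted p was 0.0158 at 1 h and 0.0496 for the average. In that fit 8611 of 17853 transcript clusters passed at 1 h and 3404 for the average. Without the second 1 h control array the difference at 1 h was -0.23 (limma adjusted p = 0.718).

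CALCRL, the calcitonin receptor-like receptor itself, ran from 3.47 to 3.85 over the 18 arrays, at the 7.27 percentile of mean signal. Its group means were 3.61, 3.65 and 3.56 at 1, 3 and 6 h with aminaphtone, against 3.80, 3.63 and 3.65 in controls. The arms overlapped at 3 and 6 h, and at 1 h the aminaphtone arrays (3.47 to 3.74) lay below the controls (3.76 to 3.85). At 1 h 7.67% of tested transcript clusters were lower with no overlap, and CALCRL itself lay under the limit for testing. Without the filter on low signal the difference at 1 h was -0.19 (limma adjusted p = 0.189), and the average difference between aminaphtone and control was -0.087 (limma adjusted p = 0.357).

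ACE, angiotensin-converting enzyme, had a signal in the middle of the arrays' range and the smallest span among the tested members. Its log2 signal at 1 h was 6.50, 6.52 and 6.45 with aminaphtone, against 6.52, 6.77 and 6.67 in controls, so that the highest aminaphtone array lay just under the lowest control. At 3 h it was 6.58, 6.65 and 6.57 with aminaphtone, against 6.68, 6.59 and 6.59 in controls. At 6 h it was 6.72, 6.58 and 6.36 with aminaphtone, against 6.59, 6.71 and 6.57 in controls. The difference was -0.17 at 1 h (limma adjusted p = 0.253), where 7.67% of transcript clusters were lower with no overlap. Without the first 1 h control array it was -0.23 at 1 h (adjusted p = 0.0796). Without the second it was -0.11 at 1 h (limma adjusted p = 0.743). With all arrays it was -0.019 at 3 h (adjusted p = 0.976) and -0.072 at 6 h (adjusted p = 1). The average was -0.086, with an interval of -0.21 to 0.039. Neither RAMP1 nor ACE passed in a comparison between times.

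**Figure D3:**
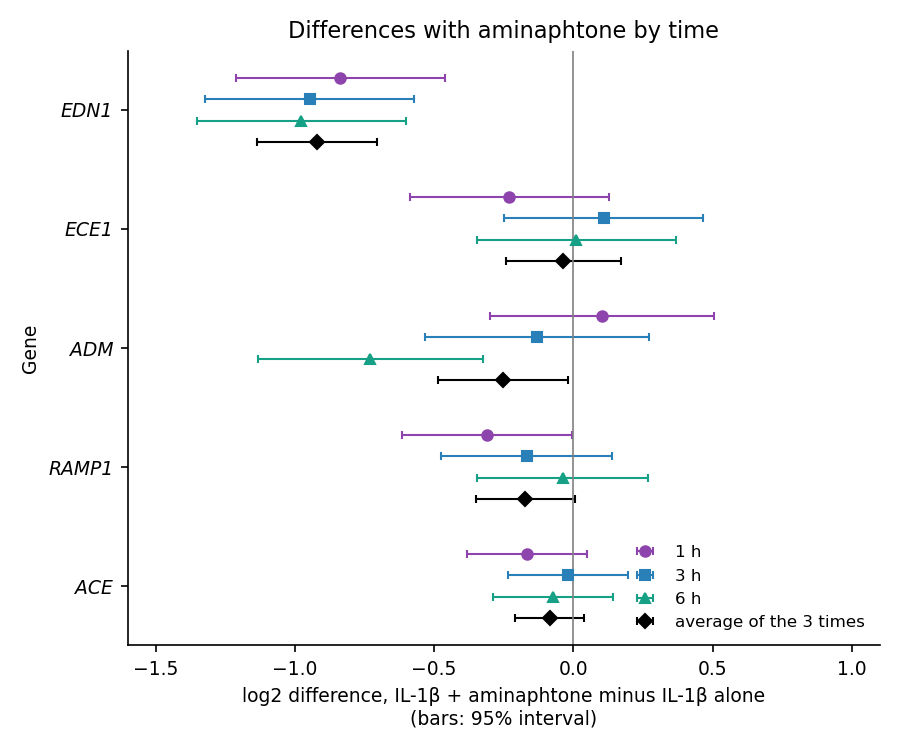
Log2 difference between aminaphtone and control for the 5 tested members at 1, 3 and 6 h and averaged over the times (points), with 95% intervals from limma as bars and a line at 0. The EDN1 intervals lie below 0 at all 3 times (-0.84, -0.95 and -0.98), those of ADM lie below 0 at 6 h (-0.73) and on average (-0.25), that of RAMP1 lies just below 0 at 1 h (-0.31), and all intervals of ECE1 and ACE include 0.

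A wider list of 62 genes of vasoactive peptides, their processing enzymes, receptors and peptidases had 56 with a transcript cluster, of which 41 were tested. On average over the times 0.751% of all tested transcript clusters passed. With aminaphtone 1 of 41 was lower and none higher in this comparison. This was OXTR, the oxytocin receptor, 1.33-fold lower (log2 -0.41, limma adjusted p = 0.00706), a call that held with any 1 array left out. At 3 h OXTR had log2 signals of 7.92, 7.89 and 8.16 with aminaphtone, against 8.81, 8.57 and 8.66 in controls, 1.62-fold lower (log2 -0.69, limma adjusted p = 0.0351). That call was made in 5 of 18 fits with 1 array left out, and the adjusted p reached 0.269 without the first 3 h aminaphtone array. With any 1 of the 6 arrays compared left out it was at least 0.0651, and in a fit of the 3 h arrays alone it was 0.244. At 1 h and at 6 h 0 of the 41 passed by limma. At an unadjusted p of 0.05, 7 did at 1 h, beside 28.9% of all transcript clusters, and 1 at 6 h, beside 3.87%. The smallest p belonged to NPY, neuropeptide Y, at 1 h (log2 -0.36, adjusted p = 0.148) and to OXTR at 6 h (log2 -0.40, adjusted p = 0.552). The effect on OXTR was not shown to differ between times (interaction F = 6.27, limma adjusted p = 0.549). Of the 41, 0 passed that test, and 1 did at an unadjusted p of 0.05, beside 8.65% of all transcript clusters. The list's median difference was -0.11 on average, beside -0.031 over all tested transcript clusters. It was -0.19, -0.086 and -0.054 at 1, 3 and 6 h, beside -0.096, -0.0089 and -0.016. With the replicate block NPR1, a natriuretic peptide receptor, passed at 1 h (log2 -0.63, limma adjusted p = 0.203 without the block), and NPR1 and OXTR passed on average. In that blocked fit 2212 of 17853 transcript clusters passed at 1 h and 767 on average. Without the first 1 h control array 15 of the 41 passed at 1 h, as did 8611 of 17853 transcript clusters.

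**Figure D4:**
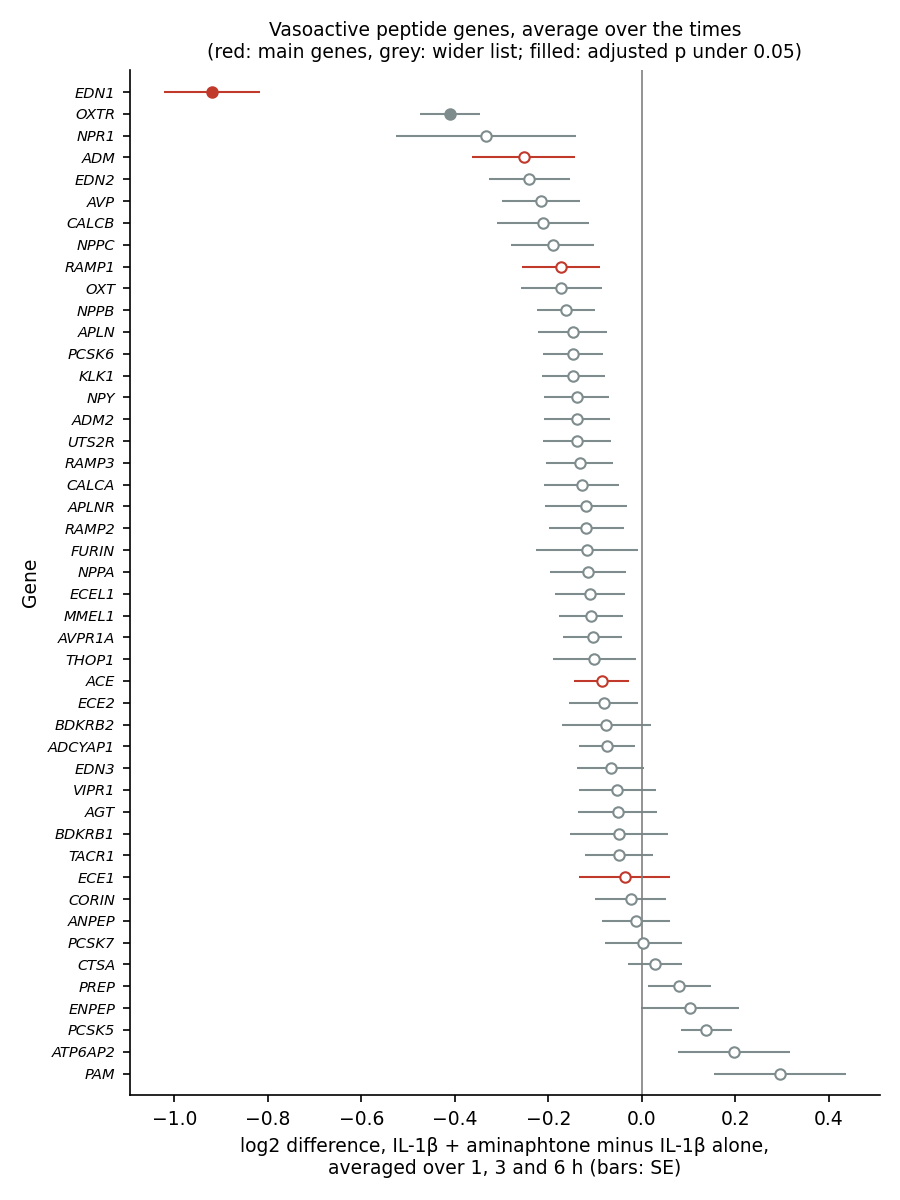
Log2 difference between aminaphtone and control, averaged over the 3 times, for the 5 tested members (red) and the 41 tested genes of the wider list (grey), with the standard error from limma as bars and a line at 0. Filled points passed the threshold. These were EDN1 (-0.92) and OXTR (-0.41).

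Between times the list gave few calls. With aminaphtone 2 of 41 passed at 3 h against 1 h and 3 of 41 at 6 h against 1 h. Of all transcript clusters 9.44% and 15.4% did. In controls 1 of 41 passed at 3 h against 1 h and 3 of 41 at 6 h against 1 h, beside 11.3% and 23.7%. In aminaphtone arrays FURIN, a proprotein convertase that cuts many peptide precursors, was 1.78-fold higher at 3 h than at 1 h (log2 0.83, limma adjusted p = 0.00967) and 1.63-fold higher at 6 h than at 1 h (adjusted p = 0.0173). BDKRB1, the inducible bradykinin receptor, was 1.66-fold higher at 3 h than at 1 h (log2 0.73, adjusted p = 0.0164). At 6 h against 1 h ECE2, a second endothelin-converting enzyme, was 1.36-fold higher (adjusted p = 0.0258) and PREP, prolyl endopeptidase, 1.30-fold higher (adjusted p = 0.0344). In control arrays OXTR was 1.45-fold higher at 3 h than at 1 h (log2 0.53, limma adjusted p = 0.00536) and 1.35-fold higher at 6 h than at 1 h (adjusted p = 0.00994). PREP was 1.38-fold higher at 6 h than at 1 h (adjusted p = 0.00822), and CTSA, a lysosomal carboxypeptidase, 1.28-fold lower (adjusted p = 0.0159). In fits of the 2 control times alone none of these calls was made, with adjusted p of 0.183 for OXTR at 3 h, 0.122 for OXTR at 6 h, 0.0802 for PREP and 0.174 for CTSA. By limma 0 of the 41 passed between 6 and 3 h in either arm. At an unadjusted p of 0.05, 1 did with aminaphtone and 2 in controls, beside 9.31% and 9.44% of all transcript clusters. The smallest p there was that of PCSK5 with aminaphtone (log2 -0.28, adjusted p = 0.282) and of PREP in controls (log2 0.39, adjusted p = 0.203). The calls with aminaphtone, 3 of 41 at 6 h against 1 h and 2 of 41 at 3 h against 1 h, were all higher. Of all transcript clusters tested, 5.49% and 4.51% passed and were higher in these comparisons. Without the first 1 h aminaphtone array neither FURIN (adjusted p = 0.0541 at 3 h and 0.0738 at 6 h), BDKRB1 (0.0982), ECE2 (0.13) nor PREP (0.0863) passed. PREP with aminaphtone was also lost without the second 1 h array (0.138) or any 1 of the 6 h arrays (0.143, 0.0611 and 0.07). BDKRB1 did not pass without the second 3 h aminaphtone array either (0.0892), nor FURIN and ECE2 at 6 h without the first 6 h aminaphtone array (0.0803 and 0.10). ECE2 was also lost without the third 1 h (0.0657) or second 6 h aminaphtone array (0.0701), and FURIN at 6 h without the second 1 h one (0.0605). In controls CTSA was lost without the second 1 h (0.0627) or second 6 h array (0.0564), and OXTR at 6 h without the third 6 h array (0.0641).

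EDN1 did not change with time past the threshold in either arm. In aminaphtone arrays it stood 0.27 higher at 3 h than at 1 h (limma adjusted p = 0.455) and 0.26 higher at 6 h than at 1 h (adjusted p = 0.379). In controls the same differences were 0.38 (adjusted p = 0.187) and 0.40 (adjusted p = 0.119, or 0.0291 without the third 1 h control array), and 6 h differed by 0.017 from 3 h. In order of level the controls at 6, 3 and 1 h came first (10.56, 10.54 and 10.16) and the aminaphtone groups at 3, 6 and 1 h after them (9.59, 9.58 and 9.32). No neighbours within an arm differed past the threshold, though the controls at 3 and 1 h had an unadjusted p of 0.047 by limma. The neighbours across the arms, control at 1 h and aminaphtone at 3 h, overlapped in 1 control array.

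The genes whose log2 signals ran most like EDN1 were sought by Pearson correlation over the 18 arrays, among 15585 tested genes with a symbol of their own. The arrays share 6 groups, so these values describe the pattern and carry no p. IGFL1 (r = 0.887), TNFSF18 (0.873), CYP24A1 (0.838), CCL22 (0.822) and CTPS1 (0.803) came first. IGFL1 encodes an insulin growth factor-like protein, TNFSF18 a cytokine of the tumour necrosis factor family, CYP24A1 the enzyme that inactivates vitamin D, CCL22 a chemokine and CTPS1 a cytidine triphosphate synthase. IGFL1 averaged 7.20, 7.64 and 7.41 with aminaphtone at 1, 3 and 6 h, against 8.28, 8.67 and 8.68 in controls. TNFSF18 averaged 6.51, 7.21 and 6.86 with aminaphtone, against 7.78, 9.30 and 8.63 in controls. Without the 1 h control arrays 3 of these 5 genes were again among the first 5, and CTPS1 ranked 1 (r = 0.97). With the correlation taken over the 6 group means 1 of the 5 was.

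The genes most like ADM were MRPS18B (r = 0.937), KIFC1 (0.925), OR1F1 (0.919), JAG2 (0.916) and ING1 (0.912), of which none was again among the first 5 without the 1 h control arrays and 1 was over the 6 group means. Those most like ECE1 were LOXL2 (r = 0.961), CXCL16 (0.957), PLXNA1 (0.954), SERPINA1 (0.946) and TIMP1 (0.945), with 2 of 5 again among the first 5 without these arrays and 0 over the group means. LOXL2, a lysyl oxidase, averaged 9.73, 10.79 and 10.82 with aminaphtone at 1, 3 and 6 h, against 10.05, 10.65 and 10.77 in controls.

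**Figure D5:**
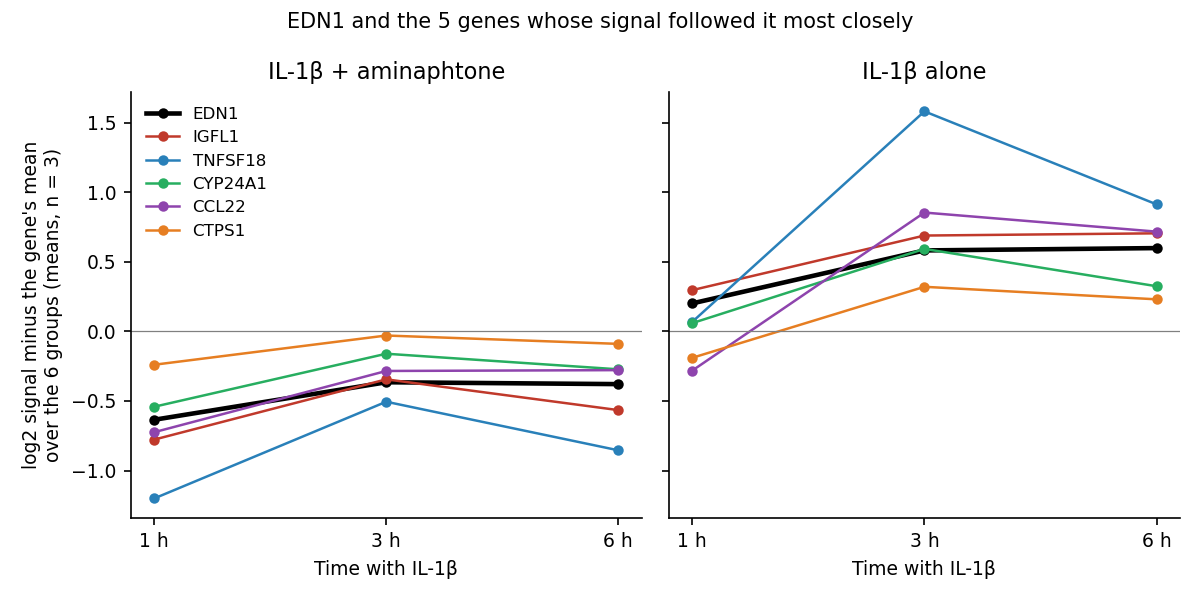
Group means of log2 signal for EDN1 and the 5 genes most correlated with it over the 18 arrays, each given relative to its own mean, by treatment and hours after IL-1β was added. The aminaphtone groups of EDN1 (9.32, 9.59 and 9.58) lie below its control groups (10.16, 10.54 and 10.56), and TNFSF18 spans the widest range.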

How the data were processed

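The authors deposited 1 table of log2 signals per transcript cluster, made by RMA in Affymetrix Expression Console per the submitters' processing notes, which give no version. RMA sets all arrays it handles to like distributions, and which arrays were handled together is not given in the sources used here. The array's genome build is likewise not given, so no coordinates of transcript clusters are printed. Of 28869 transcript clusters 21062 were annotated, 19310 with 1 symbol, 1752 with several and 7807 with none. By gene ID, 19279 of those with 1 symbol were found in RefSeq. Promoter sequences are RefSeq's (GRCh38.p14).

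Samples were grouped by treatment and time, 3 arrays each, and limma 3.58.1 in R 4.3.3 fitted a mean for each of the 6 groups over the 18 arrays, with 12 residual and 4.857 prior degrees of freedom. Annotated transcript clusters with a mean log2 over 5.523, the 25th percentile of all, were tested, two-sided, with Benjamini and Hochberg adjustment over 17853 and a threshold of 0.05. The brightest transcript cluster stood for a gene. Correlations for likeness are Pearson's. The number of arrays limits the precision. The fit was tested on simulated data, and the outcome is not given here.

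The members, the wider list, the markers and the alternatives were chosen with earlier results of these data known. All members are named. From the wider list the text names up to 3 genes past the threshold per comparison, or the 1 with the smallest p. Pairing by replicate number was checked from deviations from the group means. Equal numbers correlated at 0.726, 0.406 and 0.292 between aminaphtone and control at 1 h. Between controls at 3 and 1 h they correlated at 0.268, 0.327 and 0.239. They were taken as pairs there from the data, since the labels do not give it, but the main fit used no pairing. Its p-values there treat the arrays as independent, and pairs enter only in the replicate block. With the block the limma adjusted p for controls at 3 against 1 h was 0.205 for EDN1, 0.221 for ECE1 and 0.000181 for ADM. Between aminaphtone and control equal numbers correlated at -0.0797, 0.481 and -0.00469 at 3 h and 0.421, -0.079 and 0.687 at 6 h. These were not taken as pairs. The replicate block still paired aminaphtone with control by number at 1, 3 and 6 h. Between times it used the replicate number over all groups. The alternatives were other filters, centring, robust variance, array weights, a replicate block, fits on the arrays compared and fits without single arrays or the 1 h controls.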

Additional observations from a re-analysis of the deposited data

How the results depend on the processing

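Counts of the 5 tested members past the threshold were as follows where they moved. With array weights they were 4 at 1 h, 1 at 3 h, 2 at 6 h and 3 for the average of aminaphtone against control, 2 for the interaction and 1 between 6 and 3 h in controls. In the same fits 10722, 259, 2668, 7341, 6486 and 2144 of all 17853 transcript clusters passed. The weights, from 0.144 to 7.955, lay mostly on 1 array of a group. With the replicate block 1 member passed at 1 h, which is EDN1, and the block changed no other member's call, while in the wider list NPR1 gained a call at 1 h and on average and OXTR lost its call at 3 h (adjusted p = 0.0505). Without all 3 control arrays at 1 h, 1 member passed at 3 h, 2 at 6 h and 1 between 6 and 3 h in controls. There 83, 47 and 387 of 17853 transcript clusters passed. With arrays centred on their medians 0 members passed at 6 h, beside 12 of all transcript clusters. With only the arrays compared 0 members passed between 6 and 1 h in controls, beside 1089 of all transcript clusters. Leaving out 1 array gave 0 to 3 members at 1 h, 0 to 1 at 3 h, 0 to 2 at 6 h and 1 to 3 for the average. Over all 17853 transcript clusters the same fits gave 6 to 8611, 0 to 48, 2 to 39 and 47 to 3404. Between 6 and 3 h in controls leaving out 1 array gave 0 to 1 members, beside 16 to 305 of all transcript clusters. Between 6 and 1 h in controls it gave 0 to 3, beside 2596 to 7138. Between 3 and 1 h with aminaphtone it gave 1 to 2, beside 796 to 2683. Signs turned as follows. EDN1 in controls at 6 h against 1 h was -0.031 with array weights, against 0.40. ACE was 0.022 at 3 h with centred arrays and 0.0044 with array weights, and ECE1 was -0.0485 at 6 h with array weights. With 1 array left out the difference between aminaphtone and control ran from -0.083 to 0.37 for ADM at 1 h. At 3 h it ran from -0.009995 to 0.22 for ECE1, from -0.23 to 0.012 for ADM and from -0.043 to 0.0093 for ACE. At 6 h it ran from -0.083 to 0.067 for ECE1, from -0.13 to 0.053 for RAMP1 and from -0.15 to 0.023 for ACE. The cause was not tested. The count over all transcript clusters at 1 h was 0 with only the arrays compared, 2212 with the block and 10722 with array weights, against 15.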
